A study of Mus musculus with 16 samples.

Results

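Intraflagellar transport complex B (IFT-B) carries cargo from the base of a cilium to its tip, and 10 genes for its subunits were examined for binding of 3 transcription factors in the developing mouse retina: Ift20, Ift27, Ift46, Ift52, Ift57, Ift74, Ift80, Ift81, Ift88 and Ift172. They were taken by name from the 21887 protein-coding genes that RefSeq places on the autosomes and sex chromosomes of the mm10 build. A peak was counted to a gene when its midpoint lay inside the annotated gene body or within 10 kb of either end, and was marked as lying at an end when the midpoint was within 1 kb of one. The factors were Foxn3 and Foxn4, of the forkhead family, and Rfx3, of the regulatory factor X family. CUT&RUN, in which an antibody directs a nuclease to cut out the DNA beside a bound protein, was run on about 300000 dissociated live cells per assay from pooled retinas of CD-1 mice, an outbred strain, at embryonic day 16. All groups therefore share strain, stage and tissue, and no mutant or treatment was used. The libraries were 4 with anti-Foxn3 from 2 experiments, with 4 rabbit immunoglobulin G (IgG) controls; 2 with anti-Rfx3, with 2 rabbit IgG controls; and 2 with anti-Foxn4, with 2 mouse IgG controls. Nuclease digestion lasted 1 h, and about 12 h for Foxn4 and mouse IgG, so that the Foxn4 antibody cannot be told apart from its longer digestion or its control species.

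Each antibody has 1 deposited peak list, with 2794 peaks for Foxn3, 2956 for Foxn4 and 3981 for Rfx3. How its libraries were combined is not given in the sources used here, the depth behind a peak is unknown, and IgG signal was not analysed here. No value below therefore has a replicate spread, and no test was made. The retina holds many cell types at this stage, and a peak list does not say in which of them a site was bound.

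IFT-B is built around a core of subunits, IFT-B1, to which the peripheral IFT-B2 subunits attach, and kinesin-2 motors pull the assembled trains outwards along the axoneme. The complex brings tubulin and membrane proteins into primary cilia, and in the retina it is needed to build and maintain the photoreceptor outer segment, which is a modified cilium. Rfx factors are known regulators of ciliary genes and bind the X-box, an inverted repeat of the half-site GTTGCC or close variants, in their promoters. Forkhead proteins typically bind TGTTTAC, and members of the Foxn group can also bind a forkhead-like site with the core GACGC.

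The sequences around the annotated starts are shown first, as fixed stretches set by the start and not by a peak. They cover 5 of the 6 IFT-B genes whose annotated start lay under both a Foxn3 and an Rfx3 peak. Ift20, which had only a Foxn4 peak there, and Ift46, which had none, are also shown. Each runs 5′ to 3′ in the direction of the gene, in GRCm38.p6 coordinates from RefSeq (the assembly of mm10), and starts 150 bases before the annotated start of transcription. It is 200 bases long, so the start is the base that follows the first 150. Capitals mark the RFX half-sites GTTGCC and GTTACC, the variant GTTGCT and the forkhead-like core GACGC, on either strand, together with a whole X-box in Ift57.
Ift57, chr16:49699144-49699343, plus strand: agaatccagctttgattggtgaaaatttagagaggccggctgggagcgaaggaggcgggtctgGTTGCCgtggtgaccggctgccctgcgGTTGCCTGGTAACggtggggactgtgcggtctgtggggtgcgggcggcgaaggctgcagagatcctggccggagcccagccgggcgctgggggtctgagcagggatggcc
Ift74, chr4:94614341-94614540, plus strand: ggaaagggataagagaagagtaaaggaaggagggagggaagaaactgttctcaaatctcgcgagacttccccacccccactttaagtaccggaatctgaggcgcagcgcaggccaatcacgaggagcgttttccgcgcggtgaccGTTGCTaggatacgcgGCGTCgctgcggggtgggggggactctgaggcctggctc
Ift88, chr14:57423921-57424120, plus strand: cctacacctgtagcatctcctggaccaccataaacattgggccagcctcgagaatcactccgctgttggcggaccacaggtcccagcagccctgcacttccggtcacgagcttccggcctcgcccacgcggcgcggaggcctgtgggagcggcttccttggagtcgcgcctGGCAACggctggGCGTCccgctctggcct
Ift172, chr5:31291065-31291264, minus strand: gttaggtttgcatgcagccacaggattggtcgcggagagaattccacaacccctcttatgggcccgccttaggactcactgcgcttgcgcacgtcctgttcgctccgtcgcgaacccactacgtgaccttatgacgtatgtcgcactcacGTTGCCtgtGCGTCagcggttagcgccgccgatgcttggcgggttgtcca
Ift27, chr15:78174032-78174231, minus strand: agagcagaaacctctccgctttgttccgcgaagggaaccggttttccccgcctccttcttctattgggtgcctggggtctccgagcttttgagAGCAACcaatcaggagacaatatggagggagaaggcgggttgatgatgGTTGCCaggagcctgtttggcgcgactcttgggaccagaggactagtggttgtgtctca
Ift20, chr11:78536211-78536410, plus strand: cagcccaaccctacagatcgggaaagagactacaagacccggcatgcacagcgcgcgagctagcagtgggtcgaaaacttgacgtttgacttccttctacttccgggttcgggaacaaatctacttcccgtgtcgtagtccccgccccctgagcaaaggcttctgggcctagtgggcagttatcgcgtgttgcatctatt
Ift46, chr9:44772859-44773058, plus strand: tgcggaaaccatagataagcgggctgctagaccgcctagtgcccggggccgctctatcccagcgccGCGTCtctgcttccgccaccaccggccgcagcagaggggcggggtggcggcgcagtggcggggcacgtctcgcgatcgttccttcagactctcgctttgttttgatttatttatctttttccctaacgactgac

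Ift57 held the most complete RFX site of these promoters. Its stretch GTTGCCTGGTAAC, at bases -60 to -48 with the start as base 0, consists of 2 half-sites facing each other across 1 base, a form of the X-box, searched after the sequences were seen, that is present in 0.271% of all 32851 promoters of the RefSeq table and in 0.899% of the 2448 that overlap an Rfx3 peak. A further stretch of the same promoter, GTTGCCGTGGTGAC from base -87, departed from the full X-box, with its 2-base spacer, in 1 of 10 defined letters. A match with at most 1 such departure was in 1 of the 8 IFT-B promoters with an entry, in 2.56% of all promoters and in 14.3% of those overlapping Rfx3. Ift172 carried GTTGCC on the start itself, at bases 0 to 5, Ift27 at bases -9 to -4, and Ift88 carried it on the opposite strand at bases 21 to 26. In Ift74 the variant GTTGCT ended on the start base, at -5 to 0, and Ift52 carried it at -72 to -67. These matches in Ift52, Ift57, Ift74, Ift88, Ift172 and Ift27 all lay inside both the Foxn3 and the Rfx3 peak of their gene. The Ift20 and Ift46 promoters held neither half-site nor variant.

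In counts, an RFX half-site (GTTGCC or GTTACC, either strand, overlapping the X-box by construction) was found in 4 of the 8 IFT-B promoters with an entry, against 18.6% of all promoters and 35.1% of those overlapping an Rfx3 peak. With GTTGCT included, a choice made after the sequences were seen, the counts were 6 of 8, 30.2% and 48.8%. A full X-box with its 2-base spacer was in none of the 8, in 0.451% of all promoters and in 3.23% of those overlapping Rfx3. The forkhead-like core GACGC was in 6 of 8 (Ift27, Ift46, Ift52, Ift74, Ift88 and Ift172), against 27.2% of all promoters and 56.6% of the 1965 overlapping a Foxn3 peak, and Ift46 held it without a peak. In Ift27 the core occurred on both strands, at bases -228 to -224 and -217 to -213, upstream of the printed stretch. These matches lay 3 and 14 bp from the midpoint of the Foxn4 peak. They also lay inside the Foxn3 peak, 113 and 102 bp from its midpoint, and inside the Rfx3 peak, 73 and 62 bp from its midpoint. The core was in 55.9% of the 1050 promoters overlapping a Foxn4 peak. TGTTTAC was in none of the 8, against 3.65% of all promoters and 2.14% of those overlapping Foxn3. These are letter matches within 250 bases before and 50 after a start, and say nothing about binding by themselves. Ift80 and Ift81 had no entry.

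Peaks at the IFT-B genes were single sites, almost all at a start or end of the gene. Within 10 kb of the 10 genes lay 19 peaks, 9 of Foxn3, 8 of Rfx3 and 2 of Foxn4, and no gene had more than 1 peak of a list. Over the whole lists, 56.6% of Foxn3, 48.8% of Rfx3 and 29.7% of Foxn4 peaks lay within 1 kb of a gene end. These shares are not like for like. The whole lists also hold peaks away from genes, while the IFT-B peaks were taken only from the gene windows. The Ift74 peaks lay at an inner start, not at an outer end. A single peak is also the usual case elsewhere: 84.5% of genes with a Foxn3 peak in such a window had exactly 1, as did 85% for Foxn4 and 79.8% for Rfx3. Within 1 kb of a gene end, 7 of the 10 IFT-B genes had a Foxn3 peak (8.82% of all protein-coding genes), the same 7 had an Rfx3 peak (10.6%) and 2 had a Foxn4 peak (4.84%). Foxn3 and Rfx3 together were at 7 (7.56% of all genes) and at least 1 factor was at 8 (12.8%). Ift27 was the 1 gene with Foxn3 and Foxn4 (3.35%), with Foxn4 and Rfx3 (3.62%) and so with all 3 factors (3.06%). In the window of the gene body and 10 kb around it the counts were 9 for Foxn3 (15.2% of all genes), 8 for Rfx3 (19%) and 2 for Foxn4 (10.5%). Among the 14521 genes no shorter and no longer than these 10 (5.37 to 112 kb), the corresponding shares were 16.6%, 20.7% and 10.2%. Numbers in the names of the Foxn3 peaks have gaps, and run to at least 3440 in a list of 2794 peaks. Between the listed peaks on either side of the gene windows, 1 or more numbers were absent at 7 of the 10 genes. These were Ift20, Ift27, Ift52, Ift57, Ift80, Ift88 and Ift172, and none was absent at Ift46, Ift74 and Ift81. The share over all genes was not computed, so this count is not shown to be particular to these genes. Removed peaks may have lain anywhere in those intervals, so a count of 1 Foxn3 peak refers to the list as deposited.

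The gene added by the wider window is Ift74 in both lists, and Ift20 in the Foxn3 list. Measured from the RefSeq start in place of the outer gene ends, an alternative chosen after the data were seen, 6 of the 8 IFT-B genes with an entry had a Foxn3 peak within 1 kb (9.67% of 17492 genes), the same 6 had an Rfx3 peak (11.6%) and 2 had a Foxn4 peak (5.29%). All 6 Foxn3 and all 6 Rfx3 peaks covered the start base itself, and 1 of the 2 Foxn4 peaks did. Over the whole lists, 84.5% of Foxn3, 88.7% of Rfx3 and 68.1% of Foxn4 peaks within 1 kb of a start covered it. Midpoints at the IFT-B genes lay a median of 80.5 bp from the start for Foxn3 and 82.5 bp for Rfx3, against 101 and 112 bp over all peaks near a start.

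**Figure D1:**
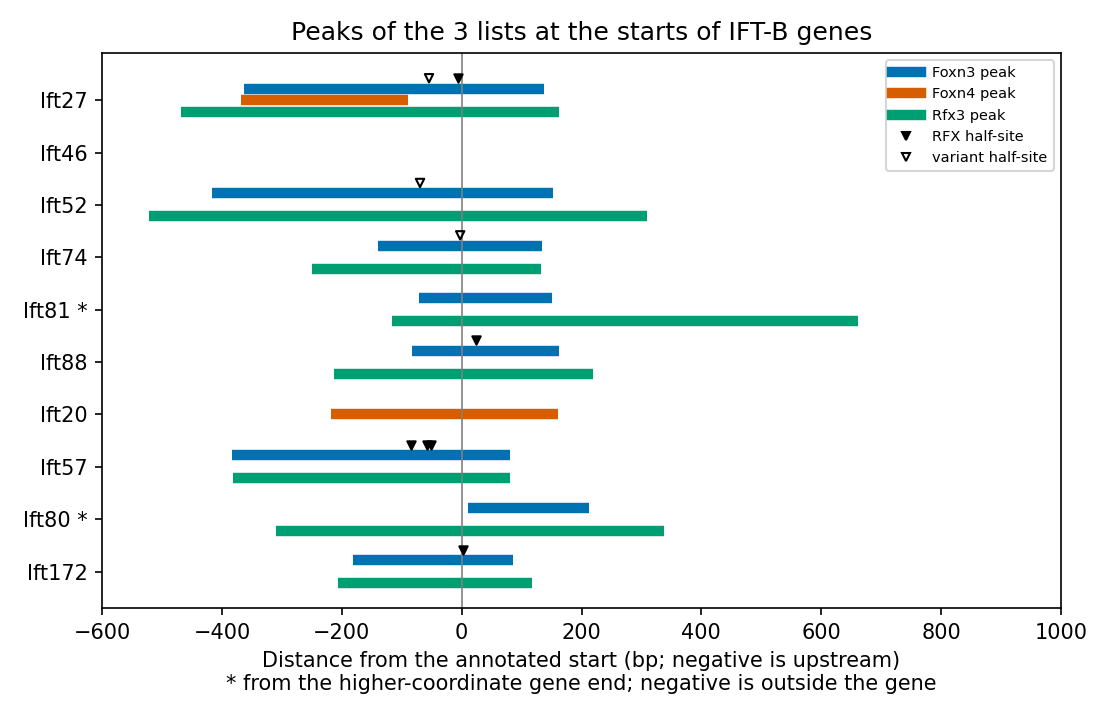
Span of each peak at the 10 IFT-B genes, in bp from the annotated start of transcription (negative is upstream), with Foxn3, Foxn4 and Rfx3 as bars in separate colours and RFX half-sites as triangles. For Ift80 and Ift81 the zero is the higher-coordinate gene end, Ift46 has no peak, and the Foxn3 peak 9119 bp beyond Ift20 is off the scale; the Foxn3 and Rfx3 bars overlap at all 8 genes that have both.

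Among the IFT-B1 core genes, Ift88 had the Foxn3 peak with the highest rank. IFT88 is the subunit lost in part in the orpk mouse, a classic model of defective cilia. The gene spans 57424064 to 57517936 on chromosome 14. Its Foxn3 peak at 57423988 to 57424233 had an authors' score of 188.8, above 94.6% of the Foxn3 list, and lay 39 bp downstream of the start by its midpoint. The Rfx3 peak at 57423858 to 57424290 scored 122, above 66.6% of the Rfx3 list, with its midpoint 3 bp downstream of the start. Ift88 was the only one of the 8 genes with both factors at which the Foxn3 rank exceeded the Rfx3 rank. No other gene has an end within 1 kb of these peaks.

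IFT74 and IFT81 form a pair that binds tubulin. The Ift74 body (chromosome 4, 94603266 to 94693233) begins 11225 bp before the start in the promoter table, and both peaks sat on that inner start. The Foxn3 peak spanned 94614352 to 94614625 (score 73.8, above 80.4% of its list) and the Rfx3 peak 94614241 to 94614624 (score 506, above 93.8%), with midpoints 3 and 59 bp upstream of the start. The outer end of Ift74 had no peak of any list. At Ift81 (chromosome 5, 122540265 to 122614546) the peaks lay at the higher-coordinate end. Its Foxn3 peak, 122614396 to 122614617, was 222 bp wide and scored 31.8, above 51.5% of its list. Its Rfx3 peak, 122613885 to 122614662, was 778 bp wide and scored 337, above 88.8%. The midpoints were 233 bp apart, the widest separation among the 8 genes, although the Foxn3 peak lay wholly within the Rfx3 peak.

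IFT52 is a scaffold subunit that holds several core members together. The Foxn3 peak of Ift52 (chromosome 2, 163017117 to 163046155) spanned 163016936 to 163017506 and had a score of 21.5, above 31% of its list and the lowest Foxn3 rank of these genes. The Rfx3 peak at 163016831 to 163017663 scored 78, above 51.1%. At 571 and 833 bp, both were the widest peaks of their list among these genes.

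Ift27 was the only one of the 10 with a peak of every list at its end. IFT27 is a Rab-like small GTPase of the core, known for its part in moving the BBSome out of cilia. The gene lies on chromosome 15, 78159460 to 78174081, on the minus strand, and no other gene end is within 1 kb of the peaks. The Foxn3 peak spanned 78173944 to 78174445 (score 28.0, above 45.7% of its list), the Foxn4 peak 78174171 to 78174450 (score 11.6, above 86%) and the Rfx3 peak 78173918 to 78174550 (score 104, above 62%). The Foxn4 peak was shifted upstream: its midpoint lay 229 bp before the start, against 113 bp for Foxn3 and 153 bp for Rfx3, and it did not cover the start. Of the Foxn4 peak, 98.2% overlapped the Foxn3 peak, and all of it lay within the Rfx3 peak.

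Ift46, the core subunit known for carrying outer dynein arms in flagella, had no peak of any list. It spans 44770456 to 44792714 on chromosome 9. The nearest Rfx3 peak was 88.8 kb away, at an end of Kmt2a, the nearest Foxn3 peak 313 kb away and the nearest Foxn4 peak 657 kb away, at an end of Rnf26. The numbers in the names of the flanking Foxn3 peaks, 3439 and 3440, are consecutive, so no numbered peak is missing from the list between them.

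Among the IFT-B2 genes, Ift57 had the Rfx3 peak with the highest rank of all 10 genes. IFT57 pairs with IFT38 in the peripheral complex. The gene lies on chromosome 16, 49699294 to 49765126. Its Rfx3 peak, 49698913 to 49699374, scored 1017, above 98.4% of the Rfx3 list, and its Foxn3 peak, 49698911 to 49699374, scored 73.8, above 80.4% of its own. The calls nearly coincided, with midpoints 1 bp apart, and no other gene has an end within 1 kb. The RFX half-sites printed above lay 66 to 100 bp from the Rfx3 midpoint, on the side towards the start.

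Ift172 encodes the largest IFT-B subunit and lies on chromosome 5, 31253279 to 31291391, on the minus strand. Its Foxn3 peak (31291028 to 31291296, score 22.4) ranked above 33.5% of its list and its Rfx3 peak (31290997 to 31291321, score 77) above 50.4%, with midpoints 3 bp apart. They lay 48 and 45 bp upstream of the start. Ift172 had the lowest Rfx3 rank of the 8 genes, and its rank stood next to that of Ift52.

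Ift80, whose human counterpart is mutated in a skeletal ciliopathy, shared both of its peaks with a neighbouring gene. It ends at 69004680 on chromosome 3, and Smc4, a condensin subunit gene, begins 57 bp beyond. The Foxn3 peak, 69004467 to 69004669 (score 34.6, above 55% of its list), lay inside the Ift80 body, 112 bp from its end and 170 bp from Smc4. The Rfx3 peak, 69004342 to 69004990 (score 87, above 55.7%), covered both gene ends, with its midpoint 14 bp from Ift80 and 72 bp from Smc4.

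Ift20, which encodes a small subunit that also has a pool at the Golgi, differed from the rest in that Foxn4 alone was at its start. The gene lies on chromosome 11, 78536361 to 78541732. The Foxn4 peak at 78536143 to 78536522 (score 7.11, above 44.1% of its list) covered the start, but Tnfaip1, on the opposite strand, lies 90 bp away and its end was 62 bp from the midpoint, so the peak is shared. The Foxn3 peak counted to Ift20 lay 9119 bp beyond the other end, at 78550697 to 78551005 (score 28.0, above 45.7%), and 116 bp from the start of Tmem97. It is the peak nearest the 10 kb limit from inside; the nearest outside it among all 10 genes was an Rfx3 peak 32.6 kb from Ift172, at Ppm1g. No Rfx3 peak lay within 10 kb of Ift20. In the Foxn3 list, number 537 is absent between the flanking peaks 536 and 538, an interval that holds the Ift20 start, so a Foxn3 peak removed there cannot be told apart from none.

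Ranks within a list summarise these values, since scores of different lists are not on a known common scale. For the 8 Foxn3 peaks at starts or ends the share of the list scoring lower ran from 31% to 94.6%, with a median of 53.2%, beside 52.8% for all Foxn3 peaks at gene ends. For the 8 Rfx3 peaks it ran from 50.4% to 98.4%, with a median of 64.3%, beside 46.4% for all Rfx3 peaks at gene ends. All 8 Rfx3 peaks were at or above the median score of their list (76), Ift172 and Ift52 only just, and 5 of the 8 Foxn3 peaks were at or above theirs (29.9). In the upper quartile of scores lay Ift57, Ift74 and Ift81 for Rfx3, and Ift57, Ift74 and Ift88 for Foxn3. Only peaks at or above the list median were then kept. IFT-B genes with a Foxn3 peak at an end then numbered 4 in place of 7 (4.88% of all genes under that filter). With Rfx3 the number was still 7 (5.19%), and with Foxn4 it was still 2 (2.85%). The Ift20 Foxn4 peak passed only by a tie: its score of 7.11 is the list median, and 44.1% of the list scored lower.

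**Figure D2:**
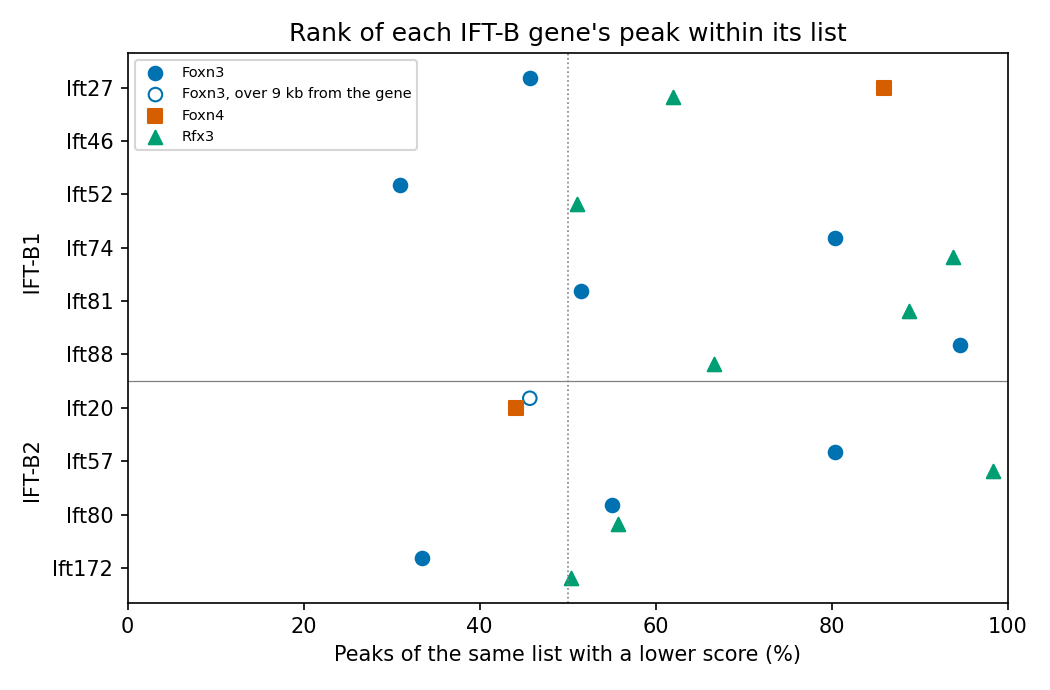
Rank of each peak at the 10 IFT-B genes, as the percent of its own list with a lower authors' score, by factor, with IFT-B1 genes above the line and IFT-B2 genes below. All Rfx3 points lie right of 50% (50.4% to 98.4%), the filled Foxn3 points run from 31% to 94.6%, and the open point is the Foxn3 peak 9119 bp beyond Ift20.

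Core and peripheral genes were alike in these counts, which are too few for a test. Of the 6 IFT-B1 genes 4 had Foxn3 and Rfx3 at an end, Ift74 had them at its inner start, and 1 had Foxn4. Of the 4 IFT-B2 genes 3 had Foxn3 and Rfx3 and 1 had Foxn4. The highest Rfx3 rank was in IFT-B2 (Ift57) and the highest Foxn3 rank in IFT-B1 (Ift88), and each group held a gene with Rfx3 near the middle of its list (Ift52 and Ift172).

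Foxn3 and Rfx3 peaks overlapped at all 8 genes that had both. Their midpoints were 1 to 233 bp apart, with a median of 38 bp, beside 47 bp over the 2272 overlapping pairs of the whole lists. Such overlap is common across the lists, which hold 2794 Foxn3 and 3981 Rfx3 peaks. Of the 1930 genes with a Foxn3 peak at an end, 1654 also had Rfx3 at an end. The overlap is therefore not shown to be particular to the IFT-B genes. In 6 of the 8 the Foxn3 peak lay entirely within the Rfx3 peak, and at Ift57 and Ift74 it extended past it by at most 2 bases, leaving 99.6% covered. Over the whole lists 55.1% of pairs were nested in this way. Foxn3 peaks at these genes had a median width of 271.5 bp (203 to 571 bp) beside 384 bp for the list, and 3 of the 8 (Ift27, Ift52 and Ift57) were wider than the list's median. Rfx3 peaks had a median of 547.5 bp (325 to 833 bp) beside 469 bp, with 4 of the 8 wider. Ranks in the 2 lists rose together, with a Spearman rho of 0.73 over the 8 genes and 0.73 over the 2272 pairs. The paired peaks share their place in the genome, and neither the 8 genes nor the pairs are replicates.

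**Figure D3:**
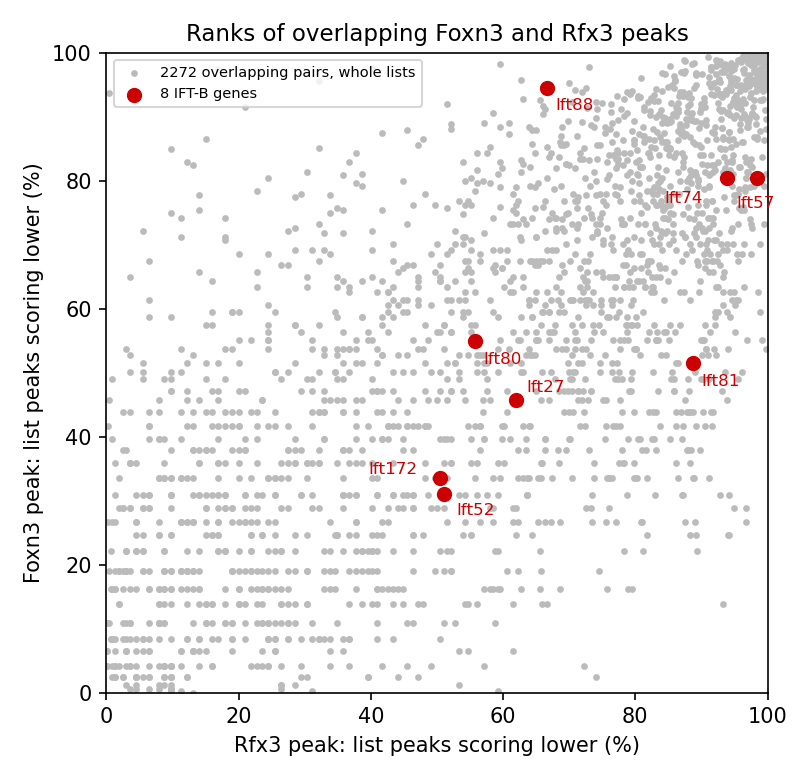
Rank of the Foxn3 peak (vertical, percent of the list scoring lower) against that of the overlapping Rfx3 peak (horizontal), for 2272 pairs of the whole lists in grey and the 8 IFT-B genes in red. Ift57 and Ift74 lie at the upper right, Ift52 and Ift172 at 31% and 33.5% for Foxn3, and Ift88 stands above and Ift81 below the other red points at like Rfx3 ranks.

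Sharing of the peaks at an end with a neighbouring gene was counted next, in numbers too small for a comparison. Of the 7 genes with a Foxn3 peak at an end 1 (Ift80, with Smc4) had another protein-coding gene within 1 kb of the same peak, and likewise 1 of the 7 with Rfx3. Over all genes with a peak at an end the shares were 40.2% for Foxn3, 36.8% for Rfx3 and 38.6% for Foxn4. Of the 2 Foxn4 genes 1 shared its peak (Ift20, with Tnfaip1). The Foxn3 peak counted to Ift20, 116 bp from Tmem97, is not at an end of Ift20 and is left out of these counts. Exons are not in the gene table used here, so whether a peak is exonic or intronic was not determined.

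The other genes of the transport machinery, set beside these 10, also had Foxn3 and Rfx3 peaks. Of 8 further IFT-B genes 3 had Foxn3 at an end (Ift22, Traf3ip1 and Ttc30a1), 4 had Rfx3 (Ift22, Hspb11, Traf3ip1 and Ttc26) and 1 had Foxn4 (Hspb11). Ift22 encodes a Rab-like GTPase of the core, and its Foxn3 and Rfx3 peaks ranked above 91% and 82.2% of their lists. Traf3ip1 encodes IFT54, and its peaks ranked above 93.7% and 93.2%. Hspb11 encodes IFT25, the partner of IFT27, and had a Foxn4 peak above 29.3% and an Rfx3 peak above 27.5% of their lists, both shared with Lrrc42. Ttc26, for IFT56, had Rfx3 (above 63%), and Ttc30a1, one of the genes for IFT70, had Foxn3 (above 35.8%). Farther from an end, Ttc26 also had Foxn3 and Rfx3 peaks above 98.9% and 92.2% of their lists, 6141 and 6147 bp away. From the RefSeq start of Ttc26 they were 52264 and 52270 bp away. Hspb11 had Foxn3 and Foxn4 peaks above 16.2% and 96.6%, 5972 and 6191 bp from an end and 24833 and 24614 bp from its RefSeq start. Neighbouring genes at these farther peaks were not looked up, so the peaks are not shown to belong to Ttc26 or Hspb11. In the gene body and 10 kb around it, 7 of the 8 had Foxn3 (15.2% of all genes), 5 Rfx3 (19%) and 1 Foxn4 (10.5%). These are not all separate sites: Ttc30a2, another gene for IFT70, was counted through the Foxn3 peak of Ttc30a1, 3598 bp from its own end. Cluap1, which encodes IFT38, resembled Ift74: its Foxn3 and Rfx3 peaks (above 80.4% and 75.7%) lay 1646 and 1654 bp from the gene end but 169 and 161 bp from the RefSeq start.

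Kinesin-2, the motor that moves IFT-B outwards, had no Foxn3 or Foxn4 peak at a gene end in its 5 genes, and Rfx3 at 2, Kif3b (above 75.7% of its list) and Kif17 (above 28.5%). By the RefSeq start, Foxn3 and Rfx3 peaks were also at Kif3a and Kifap3. This made 2 of 5 for Foxn3 (9.67% of all genes with an entry) and 4 of 5 for Rfx3 (11.6%). Of 6 genes for IFT-A, the complex of return transport, 5 had Foxn3, 5 had Rfx3 and 3 had Foxn4. Ift122 and Ift140, which share their peaks with Mbd4 and Cramp1l, had all 3, as did Wdr19. Ift43 and Wdr35 had Foxn3 and Rfx3, and Ttc21b had no peak at an end. Of 5 genes for dynein-2, the return motor, 3 had Foxn3 (Dync2li1, Wdr60 and Wdr34), 4 had Rfx3 (these and Tctex1d2) and none had Foxn4. Dync2h1 had Foxn3 and Rfx3 peaks 41 and 47 bp from its RefSeq start. By start, Foxn3 was at 4 of 7 other IFT-B genes with an entry, 4 of 5 of IFT-A and 3 of 4 of dynein-2. Rfx3 was at 5 of 7, 4 of 5 and 4 of 4. Over these 24 genes together 11 had Foxn3 (8.82% of all genes), 15 Rfx3 (10.6%) and 4 Foxn4 (4.84%) at an end. Foxn4 was thus at 2 of the 10 IFT-B genes and 3 of the 6 IFT-A genes, a difference of few genes that was not tested.

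**Figure D4:**
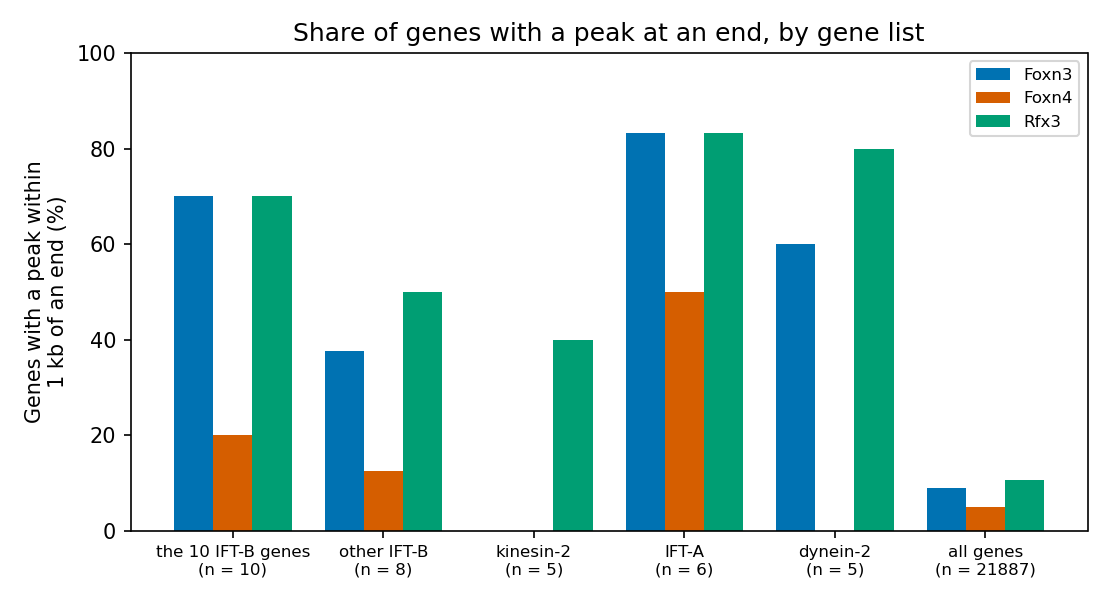
Percent of genes with a peak midpoint within 1 kb of an annotated end, by gene list (number of genes under each) and factor, with all 21887 protein-coding genes at the right; an absent bar is 0%. The 10 IFT-B genes stand at 70% for Foxn3, 20% for Foxn4 and 70% for Rfx3, beside 8.82%, 4.84% and 10.6% of all genes.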

How the data were processed

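CUT&RUN libraries were grouped by antibody from the labels. The deposited data are 3 peak lists in mm10 coordinates, per the file headers, each peak with a score given by the authors. The submitters' processing notes name cutadapt, Bowtie2, UMI-tools, bedtools and SEACR with no role or version, and the peak threshold, the use of IgG, the pooling of libraries and the scaling of the score are not given in the sources used here. The score was therefore compared only among peaks of the same list. Names of the Foxn3 peaks are numbered with gaps, so that some numbered peaks had been removed by a step not stated.

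Gene bodies came from a RefSeq table of GRCm38.p6, the assembly of mm10, and starts, strands and sequences from RefSeq promoters of the same assembly, which matched 8 of the 10 genes. Peaks were placed by their midpoint, counting from 1, and lists overlapped where peaks shared at least 1 bp. Motifs were exact matches on both strands. Gene placement was tested on simulated peaks. The genes named were all 10 and every gene of the fixed transport lists with a peak at an end or at its RefSeq start. Neighbours at these peaks were named too, with Ttc21b as the IFT-A gene without such a peak and Ttc30a2 as sharing a Ttc30a1 peak. Kif3a, Kifap3, Cluap1, Dync2h1, Ttc21b, Ttc30a2 and the genes at the nearest outside peaks fall outside the rule written first. They were named after their values were seen. The genes and lists were chosen with earlier results of these data known. Alternatives tried were other distances, score and width filters, overlap and rank definitions and motif forms. Computation used Python 3.11.15, pandas 2.3.3 and NumPy 2.4.6.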

Additional observations from a re-analysis of the deposited data

How the results depend on the processing

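Of 75 alternative values 56 stayed within 1.5 times the reported one or did not change. Distances of 500 bp or 5 kb from an end, any base of a peak in place of its midpoint, peaks of at least 150 bp, and windows of 5 or 20 kb moved none beyond that. The score moved most. With only the higher-scoring peaks of each list (median or above), IFT-B genes with a peak at an end numbered 4 for Foxn3, 4 for Foxn3 with Rfx3, and 0 for Foxn3 with Foxn4 and for all 3 lists. The Foxn3 count in the 10 kb window became 5, overlapping Foxn3 and Rfx3 pairs 5 and Foxn3 and Foxn4 pairs 0. In the upper quartile the end counts were 2 for Foxn3, 1 for Foxn4, 2 for Rfx3, 1 for Foxn3 with Rfx3 and 0 for the other combinations. Fewer peaks enter under both filters. Shares of all genes under a score filter were computed only for single lists at an end with the median filter. They were 4.88% for Foxn3, 2.85% for Foxn4 and 5.19% for Rfx3. The other filtered counts have no such share beside them, so their fall is not shown to be particular to the IFT-B genes. Requiring an overlap of 50% of both peaks left 0 Foxn4 and Rfx3 pairs. Ranked by width, the median was 16% for Foxn3 and 41.8% for Foxn4. Allowing 1 mismatch, or a spacer of 1 base, gave an X-box in 1 promoter, Ift57. No paired analysis was possible because each antibody has a single list with no value per library. Leaving out a replicate could not be run for the same reason. Depth is unknown, so a missing peak is not shown to be an unbound site.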
